A study of Mus musculus with 12 samples.

Results

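The subject here is the passage from rest to growth in the follicle stem cells of old mice: 3 libraries of old skin in early anagen were set against 3 of old skin in telogen, 6 of the 12 libraries of the study, across all genes. The members were chosen by their labels, old age together with hair cycle stage, and by no measured value. The cells came from K15-EGFP Tg/+ mice, in which a keratin 15 promoter drives a green fluorescent protein, and flow sorting took the EGFP(Hi)/ITGA6(Hi)/ScaI(-) fraction of skin, labelled as hair follicle stem cells and hair germ. Old telogen skin had no treatment, and old early anagen skin had been depilated, so entry into growth and other effects of depilation cannot be told apart in this design. Young libraries, 3 of telogen skin without treatment and 3 of depilated early anagen skin, had the same genotype and sort. They serve below for tests of whether the old response differed. The filter, the scaling and the estimate of spread also use them, so each old SE and p-value rests in part on young libraries. The reporter marks the cells in which the keratin 15 promoter is active, so a cell that lost that activity after depilation could leave the gate. The labels give no age beyond young and old. Nor do they state if the 3 libraries of a group stem from different mice, and each p-value then speaks only for the spread of these libraries, part of which may be technical.

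Hair grows in cycles. In telogen the bulge, the niche of the follicle stem cells, and the hair germ below it rest beside the dermal papilla, held there by bone morphogenetic proteins (BMP) and fibroblast growth factors. Growth begins when hair germ cells, and then bulge cells, divide, with Wnt signals and later Sonic hedgehog made by the new progenitors, while the bulge also keeps the hemidesmosomes that hold its cells to the basement membrane and makes the ligands on which the melanocyte stem cells of the niche depend. A transcriptome of these cells therefore reads cell division, niche signalling and lineage genes side by side.

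Total counts of the 6 old libraries ran from 7664782 to 8478442, and mitochondrial ribosomal RNA took 8.47% to 11.3% of them. The first principal component of the old libraries carried 44.2% of the variance and separated the stages, while on the second, with 20.3%, old telogen replicate 1 lay apart at 86.9 against -48.6 and -38.5 for the other telogen libraries. All 9 defining bulge and hair germ markers, Cd34, Lgr5, Sox9, Lhx2, Nfatc1, Tcf7l1, Krt15, Krt24 and Cdh3, had counts in all 6 old libraries. The lowest single value among them was 7.62 CPM, of Krt24 in early anagen replicate 1. Krt15 and Itga6 were used in the sort and Ly6a, the gene of Sca-1, was selected against, so their levels are no finding.

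Levels are library-size-normalized counts scaled with TMM factors (CPM), given for replicates 1, 2 and 3 of each stage in turn. A log2 fold change is early anagen minus telogen in old libraries unless another contrast is named, with its standard error (SE) and a p from edgeR's quasi-likelihood test adjusted over the 16011 genes tested. The first number in parentheses after a gene's levels is that log2 fold change. In bulk RNA, fewer cells of a type and less RNA per cell cannot be told apart. Of the genes tested, 1321 (8.25%) were higher and 1018 (6.36%) lower in old early anagen at an adjusted p of 0.05. Every count of called genes in a gene group below is to be read beside these shares. Higher genes had a median log2 fold change of 1.29, and 454 of them exceeded 2. Lower genes had a median of -1.08, with 184 beyond -2. The median over all tested genes was -0.02. The values of the stages did not overlap for 5249 genes (32.8%), and 2311 genes (14.4%) were both called and without overlap. Without early anagen replicate 1 the lower genes numbered 592, and without early anagen replicate 2 they numbered 625.

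**Figure D1:**
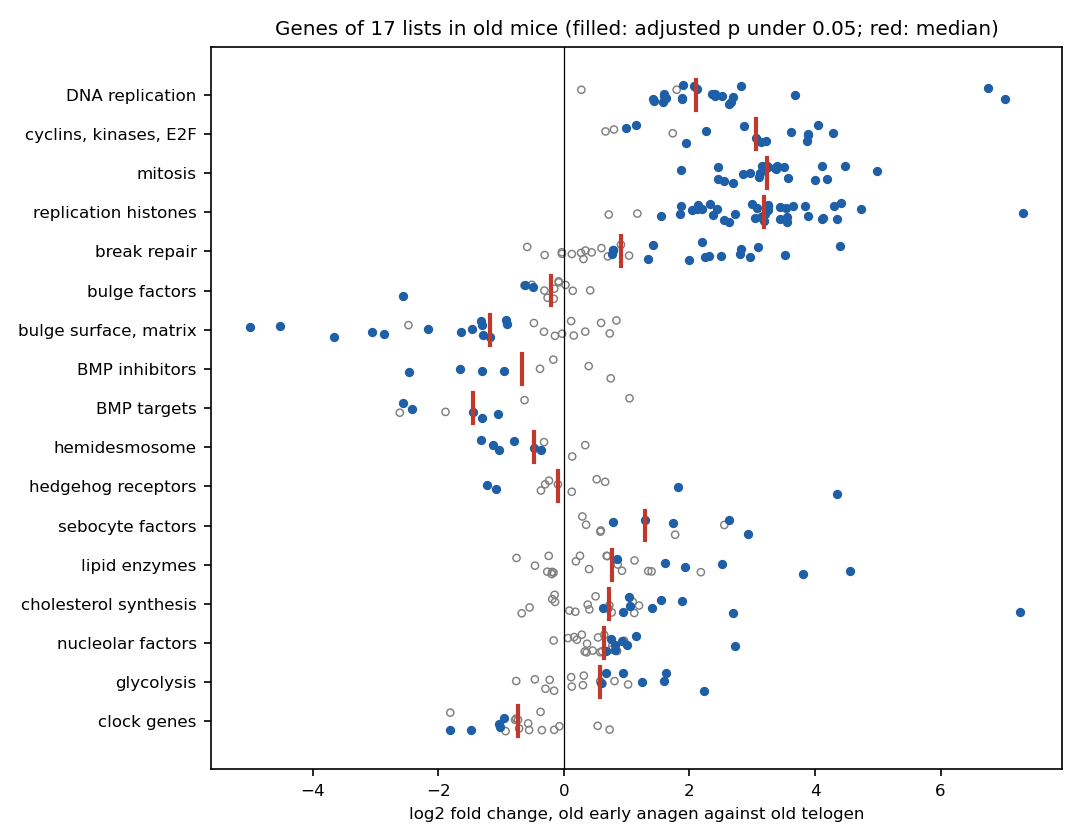
Log2 fold change, old early anagen against old telogen, of the tested genes of 17 gene groups, 1 row a group. Each point is a gene, filled where the adjusted p was under 0.05, and the red bar is the group median. Cell division groups lie to the right, with medians from 2.10 (DNA replication) to 3.24 (mitosis), while bulge surface genes (median -1.18) and BMP targets (median -1.45) lie to the left.

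The plot of gene groups shows the broad picture. Division genes rose almost throughout, from replication licensing to cytokinesis, and so did replication histones. Bulge surface genes, BMP inhibitors, BMP targets and hemidesmosome genes had calls in the lower direction only. Sebocyte, cholesterol, nucleolar and glycolytic genes had calls in the higher direction only, with medians between 0.58 and 1.29. Among the groups of epithelial genes described below with calls in 1 direction only, at most 1 gene a group passed an unadjusted p of 0.05 in the other direction, where DESeq2 called none and limma-voom called 1 clock gene.

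Of 64 tested cell cycle genes 59 were higher and none lower, with a median log2 fold change of 2.76, beside 8.25% of all genes called higher. The 59 comprised 22 of 24 genes of DNA replication and licensing, 14 of 17 cyclins, kinases and E2F factors, and 23 of 23 genes of mitosis and cytokinesis. To show what the promoters of these genes look like, the 120 bases before the start site of 3 mitotic and 3 replication genes are printed below from RefSeq (mouse build GRCm38.p6, not the GRCm39 of the counts), 5′ to 3′ on the gene's own strand. In all 6 the capitals mark the CHR letters TTTGAA or TTCGAA, the CCAAT box and E2F core letters (TTCCCGC or TTGGCGC or TTTCGCG). Every motif was searched on both strands, so its reverse complement is marked too, and matches may overlap.
Top2a, minus strand, chr11:99024190-99024309: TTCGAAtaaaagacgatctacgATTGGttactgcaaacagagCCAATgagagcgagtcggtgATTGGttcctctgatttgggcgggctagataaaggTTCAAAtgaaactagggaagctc
Mki67, minus strand, chr7:135716380-135716499: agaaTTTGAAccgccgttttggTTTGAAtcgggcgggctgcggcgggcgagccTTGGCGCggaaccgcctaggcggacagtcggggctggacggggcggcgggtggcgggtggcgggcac
Birc5, plus strand, chr11:117849117-117849236: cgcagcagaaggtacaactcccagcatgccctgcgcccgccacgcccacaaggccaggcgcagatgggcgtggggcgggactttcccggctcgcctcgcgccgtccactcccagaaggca
Mcm6, minus strand, chr1:128359706-128359825: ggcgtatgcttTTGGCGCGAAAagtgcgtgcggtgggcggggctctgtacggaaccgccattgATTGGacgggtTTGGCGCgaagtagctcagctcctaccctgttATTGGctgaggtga
Orc1, plus strand, chr4:108579334-108579453: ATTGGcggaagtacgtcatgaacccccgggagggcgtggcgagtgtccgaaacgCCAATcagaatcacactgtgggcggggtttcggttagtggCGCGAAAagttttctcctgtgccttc
Uhrf1, plus strand, first of its listed start sites, chr17:56303217-56303336: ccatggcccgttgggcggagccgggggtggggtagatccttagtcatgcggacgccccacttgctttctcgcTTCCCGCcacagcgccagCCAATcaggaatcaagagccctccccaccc

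In these 120 bases Top2a held both CHR and CCAAT letters, Mki67 held CHR and E2F core letters and Birc5 none of the 3 motifs. Mcm6, Orc1 and Uhrf1 each held E2F core and CCAAT letters and no CHR letters. Among replication genes not printed, Rrm1 also held E2F core letters, while Mcm3 and Pcna held CCAAT letters without them. The other listed start site of Uhrf1 held CCAAT and no E2F core letters. Counted over the 300 bases from 250 before to 50 after a start site, CHR letters stood in 17 of the 20 mitosis genes with a RefSeq promoter (85.0%), in 21.7% of the promoters of all 27025 genes in the table and in 16.6% of the tested genes with a promoter there. CCAAT was found in 17 of the 20 mitosis genes, in 41.1% of all promoters and in 43.0% of those of tested genes. E2F core letters stood in 2 of the 20 mitosis genes, in 8.58% of all promoters and in 15.9% of those of tested genes. The table holds 66.6% of the tested genes, so their shares describe only that portion. It holds 19 of the 24 replication genes, and their shares too describe only that portion. E2F core letters stood in 10 of the 19 (52.6%), CCAAT in 15 (78.9%) and CHR letters in 3 (15.8%). None of these shares was tested. A match is a run of letters and not a bound site.

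Some origin licensing genes were near 0 in old telogen. Mcm10, which helps to open replication origins, stood at 0.255, 0.255 and 0.473 CPM in the 3 telogen libraries and at 46.6, 39.96 and 25.6 CPM in early anagen, a log2 fold change of 6.75 (SE 0.68, adjusted p = 7.5e-06). Orc1, the largest subunit of the origin recognition complex, had 2 counts over the 3 telogen libraries and 9.99, 11.7 and 16.8 CPM in early anagen, 154 times higher with a 95% counting interval of 42.3 to 1277. Mcm6, a subunit of the replicative helicase, went from 80.2, 74.7 and 51.6 CPM to 300.5, 239 and 217 CPM (1.87, SE 0.24, adjusted p = 5e-05). For all 3 genes every early anagen library lay above every telogen library. Uhrf1, which carries DNA methylation over to newly copied strands, went from 20.3, 13.8 and 16.1 to 205, 219 and 218 CPM (3.68, SE 0.38, adjusted p = 9.9e-06), with early anagen libraries close to each other. Pclaf, a partner of the replication clamp, went from 0.766, 1.404 and 2.72 to 50.3, 36.4 and 42.5 CPM (4.70, SE 0.46, adjusted p = 7e-06). It was among the 10 steepest rises by the rule for naming genes given below, and some genes at lower levels rose more.

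Mitotic genes had a median log2 fold change of 3.24, against 2.10 for replication genes. Mki67 (ENSMUSG00000031004, GRCm39 chromosome 7, 135291513 to 135318090), the usual marker of dividing cells, went from 226, 152 and 72.99 CPM in telogen to 1474, 1455 and 1321 CPM in early anagen (log2 fold change 3.24, SE 0.46, adjusted p = 0.00013). Top2a, the topoisomerase that untangles sister chromatids, was at 69.99, 38.4 and 36.1 CPM in telogen and 533, 514 and 448 CPM in early anagen (log2 fold change 3.37, SE 0.36, adjusted p = 1.1e-05). Telogen replicate 1 was the highest of the telogen libraries for both genes, and the stages did not overlap. Birc5 and Aurkb encode survivin and the Aurora B kinase of the chromosomal passenger complex. Birc5 went from 0.383, 1.66 and 2.48 to 54.6, 48.1 and 43.7 CPM (4.99, SE 0.65, adjusted p = 5.4e-05). Aurkb went from 0.894, 4.21 and 0.7098 to 46.8, 39.96 and 43.4 CPM (4.49, SE 0.55, adjusted p = 3.6e-05). Ccnb1, the mitotic cyclin B1, went from 3.32, 2.68 and 1.06 to 57.2, 29.9 and 29.9 CPM (4.05, SE 0.54, adjusted p = 6.6e-05), with early anagen replicate 1 the highest. All 3 genes were under 5 CPM in each telogen library and above 29 CPM in each early anagen library. E2f8, a repressive E2F factor made late in S phase, went from 6.13, 0.766 and 4.14 to 43.8, 62.3 and 58.6 CPM (3.89, SE 0.58, adjusted p = 0.00019). Ccnd1, the cyclin D1 that couples growth signals to the cycle, went from 65.9, 50.03 and 81.2 to 128, 160.2 and 149 CPM (1.15, SE 0.23, adjusted p = 0.0021). Neither overlapped between the stages. Lmnb1, a nuclear lamina gene that falls in many senescent cells, rose from 66.2, 38.3 and 53.4 to 189, 199 and 186 CPM (1.86, SE 0.29, adjusted p = 0.00029).

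Of 39 replication-dependent histone genes tested, 37 rose and none fell, with a median of 3.19. These genes package newly made DNA and are near-identical copies, so the split of reads between single members is uncertain. H2ac4 went from 3.45, 1.404 and 5.92 to 99.4, 60.7 and 73.2 CPM (4.42, SE 0.43, adjusted p = 7e-06). H2bc12 went from 1.02, 1.02 and 1.42 to 33.5, 24.6 and 34.01 CPM (4.71, SE 0.52, adjusted p = 1.6e-05). H2ac8 had 1 count over the telogen libraries and 10.6, 8.67 and 7.99 CPM in early anagen, 219.5 times higher (95% counting interval 38.99 to 8711). The linker histone H1f2 was abundant at rest already, at 229, 152 and 146 CPM, and reached 596, 476 and 469.6 CPM (1.55, SE 0.17, adjusted p = 1.7e-05). All 4 had early anagen libraries above all telogen libraries.

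Repair of double-strand breaks followed, with 16 of 29 genes higher, none lower and a median of 0.91. Fanca, of the Fanconi anaemia complex that repairs crosslinks, went from 0.639, 0.893 and 1.54 to 21.97, 24.2 and 19.7 CPM (4.39, SE 0.52, adjusted p = 2.4e-05). H2ax, the histone variant that is phosphorylated at breaks, went from 24.5, 22.3 and 17.6 to 122, 97.9 and 87.2 CPM (2.25, SE 0.29, adjusted p = 5.3e-05). Both were higher in every early anagen library. The genes that hold the cycle back were mixed: of 19 tested, 4 were higher and 3 lower, and without early anagen replicate 2 the counts were 3 and 1. Cdkn2c, an inhibitor of the cyclin D kinases, went from 3.58, 4.21 and 2.13 to 16.4, 24 and 26.3 CPM (2.75, SE 0.41, adjusted p = 0.00021). Rbl1, the retinoblastoma relative p107, went from 19.8, 19.6 and 24.8 to 108, 106 and 98.4 CPM (2.28, SE 0.25, adjusted p = 1.5e-05). Cdkn1a, which encodes the p53-induced inhibitor p21, stood at 25.7, 67.1 and 59.98 CPM in telogen and 38.95, 52.3 and 50.4 CPM in early anagen, the groups overlapped and the test was not passed (-0.11, SE 0.37, adjusted p = 0.9). Trp53 itself went from 42.02, 40.5 and 36.3 to 75.3, 67.6 and 72.4 CPM (0.86, SE 0.17, adjusted p = 0.0018). Of 25 tested p53 genes and targets 3 were higher and 2 lower.

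**Figure D2:**
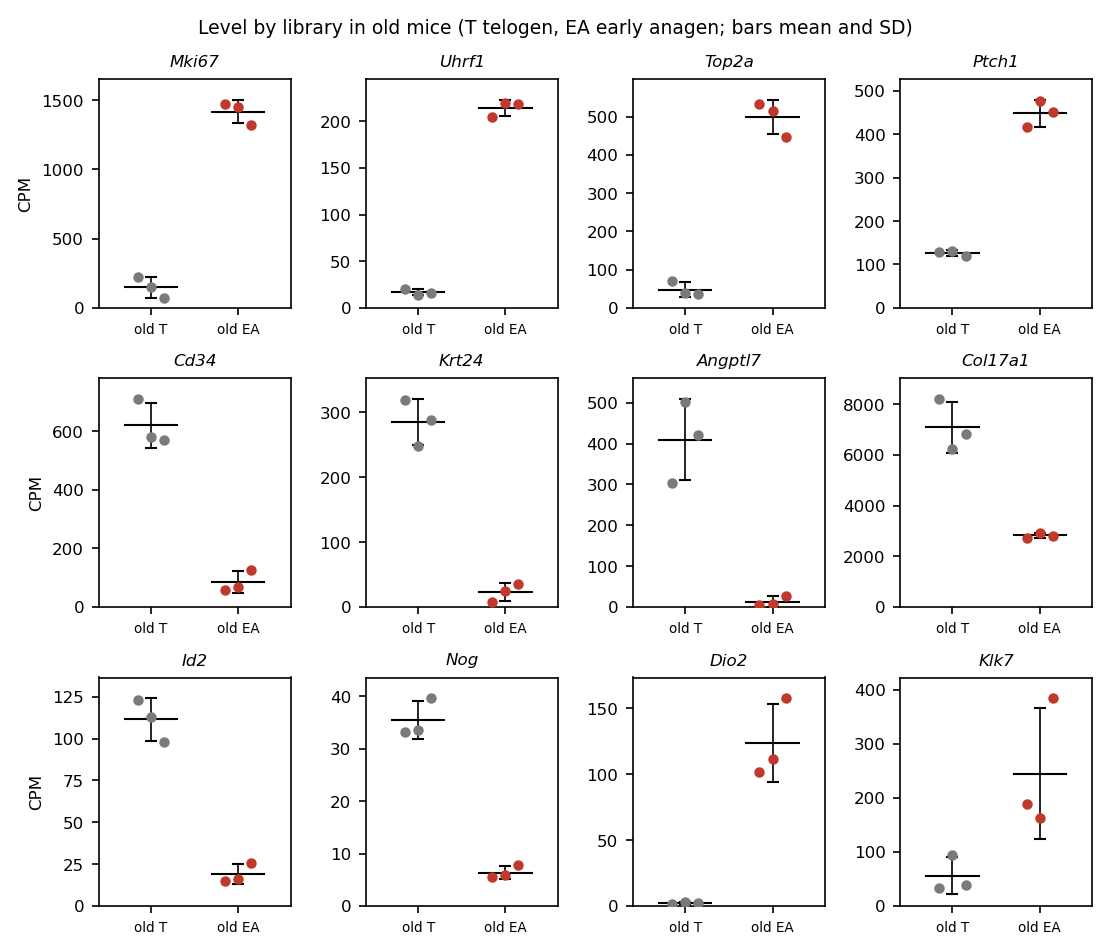
Level in CPM of 12 genes in each old library, telogen (T) in grey and early anagen (EA) in red, on axes that start at 0. Bars are the mean and SD over n = 3. In each panel the early anagen libraries lie wholly above or wholly below the telogen libraries, and the 3 early anagen points of Col17a1 and Uhrf1 lie close together while those of Klk7 spread.

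The plot of levels by library shows how far apart the stages stood for single genes. Many bulge genes fell. Of 25 genes of the bulge surface, its matrix and its secreted factors, 14 fell and none rose (median -1.18), beside 6.36% of all genes called lower. Without Krt15 and Itga6, on which the sort was based, 13 of 23 fell and none rose (median -1.18). Cd34 (ENSMUSG00000016494, GRCm39 chromosome 1, 194621127 to 194643587), the sialomucin that marks bulge cells, went from 709, 581 and 569 to 59.1, 68.98 and 127 CPM (-2.87, SE 0.28, adjusted p = 7e-06). Krt24, a keratin of the resting bulge, went from 319, 248 and 288 to 7.62, 24.5 and 35.8 CPM (-3.65, SE 0.48, adjusted p = 6.6e-05), lowest in early anagen replicate 1. Angptl7, a secreted angiopoietin-like protein, dropped from 304, 502 and 421 to 3.995, 6.53 and 27.8 CPM (-5.00, SE 0.92, adjusted p = 0.0012). Myoc, the secreted glycoprotein myocilin, went from 46.4, 22.2 and 28.98 to 0, 0.251 and 3.99 CPM (-4.52, SE 0.70, adjusted p = 0.00027). Early anagen replicate 3 kept the most of both, and the stages did not overlap. Without that library the change of Myoc was -7.85. Ccn2, a matricellular protein induced by TGF-beta and YAP, went from 1556, 710.3 and 2208 to 163, 212 and 161 CPM (-3.06, SE 0.34, adjusted p = 1.7e-05), with telogen replicate 2 the lowest of its group.

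Calls were fewer among the transcription factors of the bulge. Of 14 tested, 3 fell and none rose (median -0.21), and without early anagen replicate 1, early anagen replicate 2 or telogen replicate 1 only 1 fell. Id2, an inhibitor of basic helix-loop-helix factors and a BMP target, went from 123, 113 and 98.1 to 14.98, 15.96 and 25.9 CPM (-2.56, SE 0.27, adjusted p = 1.3e-05). Lhx2, the LIM factor that maintains the bulge, was at 548, 394 and 558 CPM in telogen and 282, 318 and 374 CPM in early anagen (log2 fold change -0.62, SE 0.19, adjusted p = 0.034). Tbx1, a T-box factor, was at 283, 297 and 217 CPM in telogen and 164, 196 and 209 CPM in early anagen (log2 fold change -0.49, SE 0.16, adjusted p = 0.045). These last 2 calls are close to the threshold: leaving out 1 old library ended the call of Lhx2 in 4 cases, early anagen replicates 1 and 2 and telogen replicates 1 and 3 (-0.60 to -0.52), and that of Tbx1 in 5, any early anagen library and telogen replicates 1 and 2 (-0.56 to -0.39). Lhx2 also lost its call with quantile normalization (-0.48, adjusted p = 0.078) and Tbx1 with old libraries alone and a replicate block (-0.48, adjusted p = 0.07). Sox9, which is needed for stem cell identity, stood at 1005, 718 and 798 CPM in telogen and 784, 779 and 813 CPM in early anagen, with overlapping groups and a test not passed (-0.09, SE 0.16, adjusted p = 0.79). Nfatc1, which holds bulge cells at rest, was at 784, 640 and 836 CPM in telogen and 524, 547 and 515 CPM in early anagen, all early anagen libraries the lower, and also missed the threshold (-0.51, SE 0.20, adjusted p = 0.1). Under 4 of 11 changes of scaling, filter, design or tool it passed (adjusted p from 0.014 to 0.25). Lgr5, the R-spondin receptor of bulge and germ, fell from 412, 318 and 262 to 166, 184 and 178 CPM (-0.91, SE 0.20, adjusted p = 0.0039).

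Among the steepest falls were genes outside the bulge groups. Galnt15, an enzyme that starts O-linked sugar chains, was at 20.6, 67.5 and 26.6 CPM in telogen and at 0, 0 and 1.29 CPM in early anagen (log2 fold change -6.44, SE 0.98, adjusted p = 0.00022). Chat, which makes acetylcholine, went from 133, 102 and 195 to 0.125, 6.53 and 18.3 CPM (-4.11, SE 0.68, adjusted p = 0.00049). Pdzrn4, a ring finger protein, went from 245, 194 and 204 to 10.7, 8.67 and 26.3 CPM (-3.81, SE 0.48, adjusted p = 4.1e-05). In all 3, early anagen replicate 3 held the highest early anagen value and still lay under every telogen library. Leaving that library out moved Galnt15 to -11.25. Cyp26b1, which breaks down retinoic acid, went from 31.9, 39.3 and 22.9 to 0.874, 2.39 and 4.12 CPM (-3.67, SE 0.53, adjusted p = 0.00013).

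Hair germ and matrix progenitor genes moved in both directions. Of 26 tested, 3 rose and 5 fell. Among the factors, Bcl11b, a zinc finger protein of epidermal progenitors, rose from 149, 160 and 184 to 342, 352 and 274 CPM (0.97, SE 0.16, adjusted p = 0.00049). Tfap2b, an AP-2 factor, fell from 461, 416 and 412 to 132, 165 and 205 CPM (-1.36, SE 0.16, adjusted p = 2.6e-05). Edar, the ectodysplasin receptor of hair placodes, rose from 1.53, 0.638 and 0.118 to 5.74, 6.03 and 16.9 CPM (3.64, SE 0.71, adjusted p = 0.0019), with early anagen replicate 3 the highest. With limma-voom Edar did not pass (3.87, adjusted p = 0.08). Dlx3, a homeobox factor of the hair matrix, stood at 17.9, 27.2 and 14.1 CPM in telogen and 7.62, 9.17 and 14.7 CPM in early anagen, with overlapping groups and no call (-0.91, SE 0.36, adjusted p = 0.11). Products of the differentiated hair were rare: 14 of 16 hair shaft genes were too low to test and neither of the other 2 passed. Krt27, an inner root sheath keratin, had no telogen counts and 3.496, 3.895 and 1.93 CPM in early anagen, at least 25.1-fold higher with the floor set at 3 counts per group (adjusted p = 0.0095). Krt75, a companion layer keratin, went the other way, from 10.6, 5.23 and 15.02 to 1.12, 0 and 0.129 CPM (-4.57, SE 0.89, adjusted p = 0.0019), and without early anagen replicate 1 its change was -7.01.

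Several hedgehog genes rose. The ligand Shh had no counts in old telogen and 0.2497, 0.251 and 3.99 CPM in early anagen, at least 11.9-fold higher (adjusted p = 0.026). Most of its counts were in early anagen replicate 3, and the call was lost without that library (4.09) or without any 1 telogen library. It was lost as well with limma-voom (3.55, adjusted p = 0.28) and with quantile normalization (2.81, adjusted p = 0.2). The filter that kept Shh also used young libraries, and Shh was tested in 9 of 11 changes of scaling, filter, design or tool. The receptor Ptch1 (ENSMUSG00000021466, GRCm39 chromosome 13, 63656142 to 63721412), which is itself induced by the pathway, went from 129, 132 and 118 to 416, 476 and 451 CPM (1.82, SE 0.15, adjusted p = 1.1e-06). Gli1, the effector induced by hedgehog, went from 95.8, 70.7 and 114 to 257, 266 and 273 CPM (1.501, SE 0.19, adjusted p = 4.5e-05). Neither overlapped between stages, and of 5 targets and inhibitors tested Gli1 was the only call. The coreceptors Boc and Cdon fell. Boc went from 639.6, 549 and 503 to 234, 259.8 and 232 CPM (-1.22, SE 0.17, adjusted p = 0.00012). Cdon went from 188, 108 and 116 to 62.3, 66.6 and 65.7 CPM (-1.08, SE 0.23, adjusted p = 0.0033). Of the 11 receptors and transducers tested, 2 rose and 2 fell.

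Wnt genes split in the same manner, with 8 of 50 higher and 8 lower (median 0.01). Among 13 ligands, 2 rose and none fell. Wnt7b, an epithelial ligand of early growth, went from 29.8, 32.2 and 47.3 to 80.4, 92.98 and 66.5 CPM (1.13, SE 0.22, adjusted p = 0.0021). Among 17 receptors, 2 rose and 5 fell. Fzd3 went from 229, 220.4 and 187 to 78.03, 72.4 and 85.4 CPM (-1.43, SE 0.16, adjusted p = 1.8e-05). Fzd9 went from 21.8, 11.2 and 19.5 to 0.125, 0 and 1.29 CPM (-5.18, SE 1.02, adjusted p = 0.002). Fzd9 was nearly gone in early anagen replicates 1 and 2, and without replicate 3 its change was -7.81. Ctnnb1, which encodes beta-catenin, rose from 465, 462 and 499 to 684, 777 and 661 CPM (0.57, SE 0.12, adjusted p = 0.004). Axin2, the feedback inhibitor often used to read Wnt activity, fell from 191, 154 and 149 to 103, 77.5 and 92.9 CPM (-0.85, SE 0.19, adjusted p = 0.0053). Of 15 targets and transducers 4 rose and 1 fell, and without early anagen replicate 3 or telogen replicate 3 only 2 rose. Dkk3, a Dickkopf family protein, fell from 488, 409 and 330.4 to 155, 157 and 189.7 CPM (-1.29, SE 0.18, adjusted p = 0.00012), with no overlap.

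BMP inhibitors and BMP targets had calls in the lower direction only. Of 8 secreted inhibitors 4 fell and none rose (median -0.67). Nog, which encodes noggin, went from 33.2, 33.6 and 39.6 to 5.49, 5.91 and 7.73 CPM (-2.47, SE 0.40, adjusted p = 0.0004). Nbl1 went from 207, 188 and 178 to 45.8, 59.05 and 77.8 CPM (-1.65, SE 0.23, adjusted p = 0.00012). Grem1, gremlin 1, went from 801, 392.2 and 743 to 228, 252 and 302 CPM (-1.31, SE 0.22, adjusted p = 0.00065). All 3 antagonists were lower in every early anagen library. Of 9 BMP targets 5 fell and none rose (median -1.45). Id1 went from 73.7, 96.2 and 53.6 to 20.1, 20.5 and 41.5 CPM (-1.45, SE 0.33, adjusted p = 0.0063). Id3 went from 68.2, 72.5 and 37.5 to 8.74, 13.3 and 11.3 CPM (-2.41, SE 0.43, adjusted p = 0.00094). Smad7 went from 80.97, 71.7 and 52.4 to 25.2, 26.3 and 31.3 CPM (-1.31, SE 0.23, adjusted p = 0.00096). Telogen and early anagen did not overlap for these 3 genes, the last of which is an inhibitory SMAD. Smad9, a BMP signal transducer, fell from 33.1, 43.4 and 44.4 to 1.87, 2.51 and 10.1 CPM (-3.06, SE 0.63, adjusted p = 0.0029). Bmp1, which is listed with the ligands but is a protease that cleaves procollagen and BMP antagonists, rose from 29.5, 24.8 and 33.4 to 112, 101 and 73.8 CPM (1.71, SE 0.20, adjusted p = 2e-05).

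TGF-beta genes changed in both directions, with 6 of 25 higher and 8 lower. Ltbp2, a latent TGF-beta binding protein of the matrix, went from 730.5, 739 and 682 to 67.7, 68.2 and 94.3 CPM (-3.22, SE 0.24, adjusted p = 6.8e-07). Thbs1, thrombospondin 1, which can activate latent TGF-beta, went from 782, 679.6 and 564 to 153, 163 and 128 CPM (-2.19, SE 0.17, adjusted p = 8.8e-07). Tgfbi, a matrix target, went from 1109, 943 and 864 to 585, 568 and 443 CPM (-0.87, SE 0.18, adjusted p = 0.0028). All early anagen values of the 3 genes lay under all telogen values. Other targets rose from low levels. Fn1, fibronectin, went from 3.704, 4.98 and 2.96 to 28.7, 22.2 and 47.5 CPM (3.08, SE 0.48, adjusted p = 0.0003). Pmepa1, a membrane protein that dampens the pathway, went from 7.15, 3.06 and 6.62 to 62.3, 80.5 and 51.5 CPM (3.52, SE 0.30, adjusted p = 2.2e-06). The stages of both genes stood apart. With limma-voom Fn1 did not pass (3.02, adjusted p = 0.052). Inhbb, an activin subunit, rose from 70.9, 62.1 and 45.4 to 123, 181 and 106 CPM (1.20, SE 0.26, adjusted p = 0.0042). Hes1, a Notch target, rose from 35.6, 31.3 and 27.3 to 71.8, 89.2 and 63.8 CPM (1.25, SE 0.21, adjusted p = 0.00062), while of 12 Notch receptors and modifiers 1 rose and 3 fell, with neither kind called without early anagen replicate 1.

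Of 6 tested receptors and ligands of the fibroblast growth factor family, 3 fell and 1 rose. Fgf1 went from 142, 132 and 158 to 24.6, 25.4 and 43.7 CPM (-2.20, SE 0.24, adjusted p = 1.3e-05). Fgfr3 went from 219, 238 and 178 to 68.5, 91.1 and 75.5 CPM (-1.43, SE 0.17, adjusted p = 2.9e-05). Fgfr1 went from 736, 691 and 763 to 367, 434 and 428 CPM (-0.83, SE 0.12, adjusted p = 0.0001). The stages did not overlap for any of them. Fgf2 was without counts in telogen and stood at 0.375, 2.64 and 3.22 CPM in early anagen, at least 16.6-fold higher (adjusted p = 0.0057). Lrig1, a brake on the epidermal growth factor receptor and a stem cell marker of the isthmus, rose from 348, 234 and 337 to 771, 842 and 639 CPM (1.29, SE 0.24, adjusted p = 0.0012). Spry1, a feedback inhibitor of receptor kinases, fell from 54.4, 74.02 and 40.3 to 11.6, 22.4 and 13.9 CPM (-1.82, SE 0.29, adjusted p = 0.00033).

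The list of ligands for melanocytes, which also holds Col17a1 and the transcription factor Nfib, had 5 higher and 1 lower of 12 tested. The 1 lower gene was Col17a1, a hemidesmosome collagen and not a ligand. Without early anagen replicate 2 the higher ones were 3. Kitl, which encodes stem cell factor, stood at 53.6, 34.5 and 24.96 CPM in old telogen and 56.6, 78.9 and 54.1 CPM in old early anagen. Every early anagen library lay above every telogen library, yet the change did not pass the test (0.75, SE 0.26, adjusted p = 0.061). It passed under 4 of 11 changes of scaling, filter, design or tool (0.72 to 0.81 over the 11, adjusted p from 0.0074 to 0.08), among them DESeq2 and limma-voom, and without telogen replicate 1 (1.09). Edn1, endothelin 1, was low throughout, at 0.383, 5.62 and 0.828 CPM in telogen and 2.37, 4.15 and 6.57 CPM in early anagen, and did not pass (0.94, SE 0.87, adjusted p = 0.55). Mitf, the master regulator of melanocytes, which has isoforms in other cells as well, fell from 205, 139 and 187 to 33.3, 42.3 and 52.3 CPM (-2.05, SE 0.21, adjusted p = 8.4e-06). Other pigment cell genes were low: 7 of the 12 melanocyte markers stayed under 1 CPM in all old libraries, Oca2 was at 0, and of the 5 tested Mitf was the only one called. The summed melanocyte list, mostly Mitf, ran from 148 to 219 CPM in telogen and from 49.7 to 61.5 CPM in early anagen. Of 24 prostaglandin genes 1 rose and 2 fell, beside 8.25% and 6.36% of all genes. Hpgd, which inactivates prostaglandins, fell from 51.98, 52.5 and 75.6 to 10.4, 10.2 and 9.92 CPM (-2.56, SE 0.34, adjusted p = 7.9e-05). Ptgs2, the inducible cyclooxygenase, was at 5.24, 11.1 and 7.69 CPM in telogen and 1.75, 2.64 and 6.44 CPM in early anagen and did not pass (-1.15, SE 0.90, adjusted p = 0.47).

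Some sebaceous and lipid genes rose in old early anagen. Of 11 sebocyte factors and receptors 5 rose and none fell (median 1.29), and without early anagen replicate 3 or telogen replicate 3 the number was 3. Of 24 lipid synthesis enzymes 6 rose and none fell (median 0.77), and without telogen replicate 1 the counts were 4 and 1. Far2, a fatty acyl reductase of wax synthesis, went from 2.43, 5.36 and 3.43 to 83.2, 21.7 and 53.3 CPM (3.81, SE 0.54, adjusted p = 0.00011), lowest of its group in early anagen replicate 2. Soat1, which esterifies cholesterol, showed the same order of early anagen libraries, at 3.96, 5.87 and 6.98 CPM in telogen and 49.2, 13.2 and 34.5 CPM in early anagen (log2 fold change 2.52, SE 0.49, adjusted p = 0.0018). Pparg, the nuclear receptor of sebocytes and fat cells, went from 2.299, 4.59 and 1.301 to 19.4, 12.8 and 18.8 CPM (2.63, SE 0.66, adjusted p = 0.012), and without telogen replicate 3 it did not pass (2.30, adjusted p = 0.055). Mc5r, the melanocortin receptor of sebocytes, went from 1.41, 0.766 and 0.355 to 6.99, 3.52 and 9.02 CPM (2.94, SE 0.79, adjusted p = 0.018), a call lost without early anagen replicate 3 or telogen replicate 2 or 3 (2.57 to 2.88) and with limma-voom (2.96, adjusted p = 0.17). Fabp5, a carrier of fatty acids, went from 19.5, 33.6 and 38.7 to 126, 99.6 and 125 CPM (1.93, SE 0.36, adjusted p = 0.0013). No telogen library reached an early anagen library for these 5 genes.

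Cholesterol synthesis gave 9 higher and none lower of 25 (median 0.72), with between 4 and 5 higher when early anagen replicate 1 or 3 or telogen replicate 2 or 3 was left out. Sqle, the squalene epoxidase, went from 17.5, 30.4 and 16.7 to 64.4, 56.8 and 67.6 CPM (1.55, SE 0.25, adjusted p = 0.00044). Telogen replicate 2 was the highest of its group, and the stages did not overlap.

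Markers of the upper follicle, that is of infundibulum and isthmus, were summed as well. Their level was 3278, 7585 and 5135 CPM in telogen and 7240, 6510 and 9273 CPM in early anagen, so telogen replicate 2 lay within the early anagen range. Sebocyte factors summed to 1450, 3523 and 2368 CPM and then 3886, 3558 and 4661 CPM. Lipid enzymes summed to 969, 1239 and 1015 CPM and then 2299, 1390 and 1724 CPM. Telogen replicate 1, which stood apart on the second component, was the lowest library in all 3 sums. Krt79, Gata6 and Lrig1 are in both the upper follicle and the sebocyte list, and Krt79 made up most of the sebocyte sum in each old library. The upper follicle and sebocyte sums are therefore not separate readings. Whether upper follicle or gland cells in the gate contributed to the calls was not tested. Of 12 upper follicle genes 3 rose and none fell, and without telogen replicate 2 the number was 5. Krt79, a keratin of the infundibulum and gland duct, was at 771, 2921 and 1594 CPM in telogen and 2471, 2123 and 3312 CPM in early anagen with overlapping groups and no call (0.58, SE 0.37, adjusted p = 0.35). Defb6, a beta-defensin, was at 108, 375 and 238 CPM in telogen and 515, 414 and 717 CPM in early anagen and missed the threshold (1.19, SE 0.40, adjusted p = 0.058). Under 6 of 11 changes of scaling, filter, design or tool it passed (1.16 to 1.36 over the 11, adjusted p from 4.8e-12 to 0.11). Plet1, a surface marker of the isthmus, was at 57.9, 89.5 and 90.03 CPM in telogen and 121, 102 and 185 CPM in early anagen (log2 fold change 0.78, SE 0.23, adjusted p = 0.03), a call lost without early anagen replicate 3 (0.50) or telogen replicate 1 (0.60).

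Kallikrein-type proteases were among the steepest rises. Of 12 tested proteases and inhibitors 4 rose and none fell (median 1.23). Klk6 was at 0.255, 0.383 and 0.828 CPM in telogen and 30.7, 26.9 and 128 CPM in early anagen (log2 fold change 6.92, SE 0.97, adjusted p = 0.00011). Klk10 was at 4.09, 3.83 and 4.14 CPM in telogen and 21.2, 18.3 and 63.3 CPM in early anagen (log2 fold change 3.09, SE 0.61, adjusted p = 0.002). Klk7, which loosens the cornified layer, was at 33.2, 94.7 and 39.3 CPM in telogen and 188, 162 and 384 CPM in early anagen (log2 fold change 2.13, SE 0.47, adjusted p = 0.0049). Early anagen replicate 3 was the highest for all 3 and the stages did not overlap. Lcn2, the siderophore-binding lipocalin of stressed epithelium, rose from 0.128, 1.66 and 0 to 19.2, 24.4 and 58.9 CPM (5.83, SE 1.18, adjusted p = 0.0026), and without telogen replicate 2 its change was 8.79. Epidermal differentiation genes as a group had 1 of 23 higher and 1 lower (4.35% each), beside 8.25% and 6.36% of all genes. Their summed level was 3496, 6047 and 5077 CPM in telogen and 3831, 4988 and 4169 CPM in early anagen, with overlap between the stages.

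Other steep rises lay outside these groups. Dio2, the deiodinase that makes active thyroid hormone, went from 1.41, 3.32 and 1.89 to 101, 112 and 158 CPM (5.801, SE 0.60, adjusted p = 9.9e-06). Mtmr7, a phosphoinositide phosphatase, went from 0.128, 1.02 and 0.118 to 21.7, 27.4 and 30.5 CPM (5.94, SE 0.75, adjusted p = 4.5e-05). Rflna, refilin A, a regulator of filamin, went from 0.511, 0.766 and 1.42 to 23.4, 20.6 and 25.5 CPM (4.66, SE 0.76, adjusted p = 0.00044). Telogen values of all 3 stayed under 4 CPM.

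Most hemidesmosome genes fell in old early anagen. Of 9 tested 6 fell and none rose (median -0.48), and without Itga6, on which the sort was based, 6 of 8 fell (median -0.64). Col17a1 (ENSMUSG00000025064, GRCm39 chromosome 19, 47634783 to 47680533), the transmembrane collagen of the hemidesmosome, went from 8200, 6239 and 6831 to 2735, 2932 and 2806 CPM (-1.33, SE 0.14, adjusted p = 8.7e-06). Dst, whose epithelial form links keratin to the plaque, went from 8290, 9946 and 7633 to 3680, 4276 and 3912 CPM (-1.12, SE 0.18, adjusted p = 0.00044). Itgb4, its integrin, went from 1067, 956 and 945 to 564, 624 and 519 CPM (-0.80, SE 0.13, adjusted p = 0.00041). Lamb3, a chain of the laminin it binds, went from 737, 617 and 644 to 336, 334 and 305 CPM (-1.03, SE 0.16, adjusted p = 0.00026). Each of the 4 was lower in every early anagen library. With quantile normalization the change of Col17a1 was -0.85. Among 19 basement membrane genes 7 rose and 2 fell. Fras1, a matrix protein of the epidermal basement membrane, rose from 7.92, 4.34 and 2.01 to 29.5, 17.8 and 72.7 CPM (3.08, SE 0.49, adjusted p = 0.00033), highest in early anagen replicate 3.

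Metabolic groups had smaller medians. Of 20 glycolysis genes 7 rose and none fell (median 0.58). Hk2, hexokinase 2, went from 70.8, 66.5 and 59.6 to 191, 255 and 161 CPM (1.62, SE 0.19, adjusted p = 2.1e-05). Eno1, enolase 1, went from 109, 81.4 and 76.3 to 309, 247 and 245 CPM (1.59, SE 0.18, adjusted p = 2.1e-05). Slc16a1, a lactate transporter, went from 12.5, 12.4 and 3.55 to 36.6, 48.2 and 48.7 CPM (2.23, SE 0.42, adjusted p = 0.0014). All early anagen libraries were above all telogen libraries. Hypoxia targets split, with 3 of 12 higher and 2 lower. The carbonic anhydrase Car12 went from 82.8, 49.1 and 58.4 to 432, 369 and 284 CPM (2.51, SE 0.39, adjusted p = 0.00028). Ndrg1, a stress response gene of differentiated cells, went from 146, 139.5 and 75 to 29.7, 19.7 and 17.3 CPM (-2.43, SE 0.31, adjusted p = 4.5e-05). Nuclear genes of the respiratory chain were higher in 5 of 24 cases, among them Atp5b of the ATP synthase, from 348, 255 and 289.5 to 544, 460.2 and 456 CPM (0.71, SE 0.15, adjusted p = 0.0036).

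Of 25 nucleolar and MYC-linked genes 8 rose and none fell (median 0.64). Npm1, nucleophosmin, went from 188, 156 and 149.7 to 329.6, 369.9 and 296 CPM (1.01, SE 0.15, adjusted p = 0.00015). Mycn, a MYC family factor, went from 24.3, 3.83 and 8.99 to 68.4, 91.3 and 84.1 CPM (2.72, SE 0.43, adjusted p = 0.00036), with telogen replicate 1 the highest at rest. Of 17 ATF4 targets and tRNA synthetases 5 rose. Slc7a5, a carrier of large amino acids, went from 8.05, 9.83 and 4.26 to 42.8, 46.4 and 57.6 CPM (2.73, SE 0.30, adjusted p = 1.6e-05). Phgdh, the first enzyme of serine synthesis, went from 11.6, 10.5 and 10.4 to 49.9, 40.5 and 56.4 CPM (2.174, SE 0.35, adjusted p = 0.00039). Hspa5, a chaperone of the endoplasmic reticulum, rose from 189, 185 and 175 to 282, 306 and 268 CPM (0.64, SE 0.13, adjusted p = 0.0028).

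Clock, hormone and immediate early genes were called lower more often than higher. Of 19 clock genes 5 fell and none rose (median -0.73), and with no filter on low counts the number was 10. Per1 went from 431, 487 and 499 to 283, 251 and 195 CPM (-0.96, SE 0.14, adjusted p = 0.00021). Tef went from 415, 469 and 466 to 226, 191 and 238 CPM (-1.04, SE 0.21, adjusted p = 0.0029). Cry2 went from 188, 158 and 117 to 68.2, 70.9 and 89.9 CPM (-1.01, SE 0.18, adjusted p = 0.00086). All 3 encode parts or outputs of the circadian oscillator, and none overlapped between the stages. No label gives the hour at which skin was taken, so sampling hour and stage cannot be told apart.

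Of 20 thyroid, steroid and retinoid genes 2 rose and 6 fell. Tsc22d3, a glucocorticoid-induced leucine zipper, went from 217, 365 and 307 to 69.8, 57.2 and 39.4 CPM (-2.42, SE 0.33, adjusted p = 9.4e-05). Of 24 immediate early genes 2 rose and 6 fell, but without early anagen replicate 3 they numbered 2 and 3, and without telogen replicate 2 they numbered 4 and 3. Klf4 went from 579, 709.6 and 572 to 222, 202 and 229 CPM (-1.51, SE 0.23, adjusted p = 0.00023). Maff went from 33.7, 53.9 and 11.7 to 9.24, 7.79 and 4.25 CPM (-2.22, SE 0.50, adjusted p = 0.0057). Ccn1 went from 167, 177 and 228 to 48.9, 58.3 and 42.3 CPM (-1.94, SE 0.27, adjusted p = 0.00011). The factors Klf4 and Maff and the matrix protein Ccn1 were lower in every early anagen library. Ier5, an immediate early gene, rose from 5.11, 7.66 and 10.2 to 22.97, 27.1 and 26.03 CPM (1.73, SE 0.31, adjusted p = 0.0011). Nfkbia, the inhibitor of NF-kappaB, fell from 178, 161 and 161 to 81.4, 73.9 and 71.8 CPM (-1.14, SE 0.21, adjusted p = 0.0011).

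Markers of other cells of the skin were summed in the same manner. Of 20 immune markers 8 could be tested, 9 stayed under 1 CPM in all old libraries and 5, Ms4a1, Lyz2, Mcpt4, Cpa3 and Ly6g, had no count there. Their sum was 2.68 to 33.4 CPM in telogen and 8.12 to 14.9 CPM in early anagen. Of 18 fibroblast and dermal papilla markers 11 stayed under 1 CPM and 6, Lum, Sox2, Corin, Alpl, Fgf7 and Fgf10, were at 0. Their sum was 92.5 to 141 CPM in telogen, most of it Col1a2, and 25.3 to 45.0 CPM in early anagen. Col1a2, a chain of type I collagen, fell from 86.6, 55.9 and 87.1 to 13.5, 6.53 and 25.1 CPM (-2.35, SE 0.53, adjusted p = 0.0059). Vessel markers summed to 501 to 653 CPM in telogen and 453 to 502 CPM in early anagen, nearly all of it Cspg4, and Emcn was at 0. Of 14 vessel markers 4 could be tested. Nerve and Schwann markers summed to 171 to 245 CPM in telogen and 289 to 342 CPM in early anagen, most of it Egr2, which is an immediate early gene too, with Foxd3 at 0. Of 12 such markers 7 could be tested. The part of such cells in any result above was not tested.

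To see whether the old response differed from that of young follicle stem cells, the old change minus the young change was tested in the same fit. It passed for 250 genes (1.56%), 161 in the higher (1.01%) and 89 in the lower direction (0.556%), and of the 250 genes 92 were called in old mice and 207 in young. In young mice 12.6% of genes were called higher and 12.4% lower. There were 19 genes higher in old early anagen and lower in young, and 7 the other way round, and the difference passed for all 26.

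**Figure D3:**
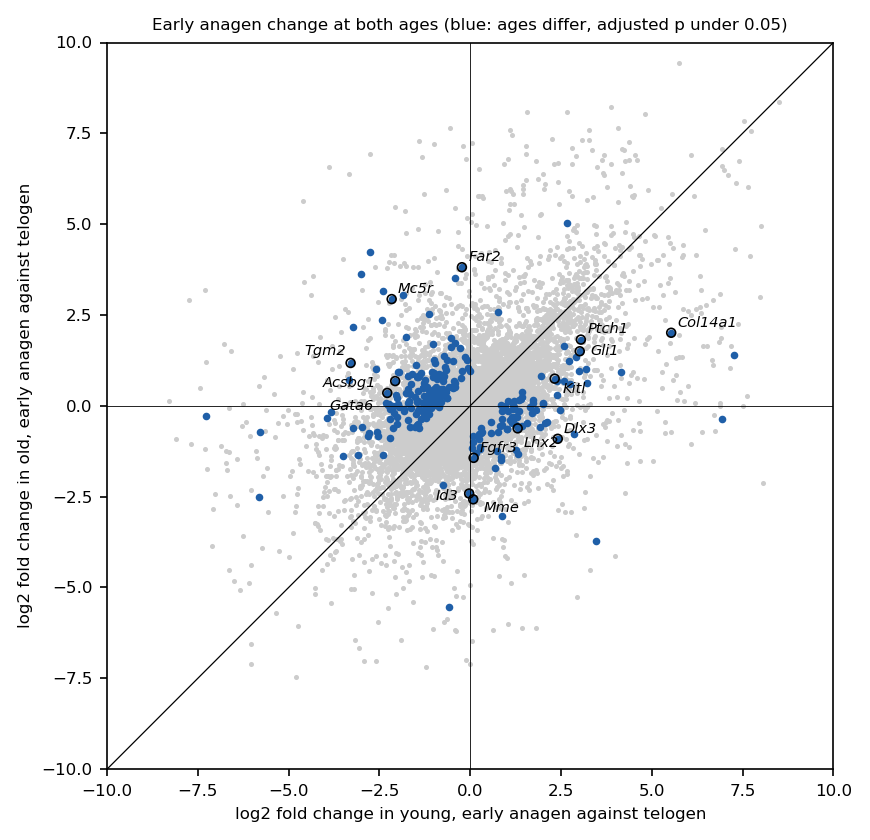
Log2 fold change, early anagen against telogen, in young mice (horizontal) and in old mice (vertical) for the 16011 genes tested. Each point is a gene, blue where the difference between the ages had an adjusted p under 0.05, the diagonal marks equal change, and named genes are circled. Ptch1, Gli1 and Col14a1 rose at both ages and lie under the diagonal, while Far2 lies near 0 on the young axis and at 3.81 on the old.

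The plot of the changes at both ages separates 2 kinds of named genes. In the first kind the difference was negative, with a larger rise in young or a fall in old. Ptch1 stood at 119, 139.9 and 109 CPM in young telogen and 854, 977 and 1212 CPM in young early anagen, a change of 3.05 against 1.82 in old, with a difference of -1.23 (SE 0.20, adjusted p = 0.0074). Gli1 stood at 54.4, 70 and 52.8 CPM in young telogen and 390, 441 and 603 CPM in young early anagen (3.02 against 1.501, difference -1.51, SE 0.27, adjusted p = 0.009). In telogen the Ptch1 values of the ages overlapped and every old Gli1 value was above the young ones. In early anagen every young library was above every old one for both genes. Col14a1, a collagen that binds fibrils, was at 3.41, 3.21 and 3.39 CPM in young telogen and 169.7, 137 and 159 CPM in young early anagen. In old it was at 4.34, 2.94 and 3.19 CPM in telogen and 12.9, 13.7 and 15.7 CPM in early anagen. It rose at both ages, by 5.53 and 2.01, with a difference of -3.52 (SE 0.31, adjusted p = 2.7e-05). Kitl was at 27.3, 25.1 and 24.6 CPM in young telogen and 114, 104 and 168 CPM in young early anagen, a change of 2.33 against 0.75 in old. Its difference of -1.58 (SE 0.36, adjusted p = 0.039) was lost in 6 of the 12 cases of leaving out 1 library: early anagen replicates 1 and 3 and telogen replicate 1 of old, and early anagen replicate 3 and telogen replicates 2 and 3 of young (-1.56 to -1.24). Lama5, a laminin chain of the basement membrane, rose in young from 203, 189 and 244 to 486, 578 and 644 CPM and in old stood at 382, 312 and 374 CPM in telogen and 435, 400.4 and 439 CPM in early anagen (difference -1.17, SE 0.20, adjusted p = 0.0083).

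Bulge factors differed in both directions. Of 14 tested, 3 had a negative difference, Lhx2, Tbx1 and Tcf7l1, and 2 a positive one, Foxc1 and Fosl2. The last 3 were taken up after their values were seen. Tcf7l1, a TCF factor that represses Wnt targets, had a difference of -1.64 (SE 0.40, adjusted p = 0.048), lost in 8 of 12 cases of leaving out 1 library (-1.70 to -1.40). Foxc1, a forkhead factor of the bulge, had one of 1.32 (SE 0.27, adjusted p = 0.023), lost in 4 cases (1.21 to 1.31). Fosl2, a Fos family factor, had one of 1.26 (SE 0.24, adjusted p = 0.015), which passed in every case.

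Lhx2 rose in young from 244, 180.1 and 205 to 436, 445 and 676 CPM and fell in old (difference -1.93, SE 0.27, adjusted p = 0.0027). Tbx1 did so from 121, 133 and 163 to 286, 317 and 322 CPM (difference -1.64, SE 0.22, adjusted p = 0.0026). In both genes old telogen stood above young telogen on average, at 500 ± 92.3 against 209.6 ± 31.9 CPM for Lhx2 and 266 ± 42.4 against 139 ± 21.5 CPM for Tbx1 (SD, n = 3). Dlx3 rose in young from 9.74, 12.97 and 16.1 to 43.9, 55.9 and 107 CPM (difference -3.32, SE 0.51, adjusted p = 0.006). Fgfr3 did not pass in young, at 104, 122 and 132 CPM in telogen and 107, 131 and 145 CPM in early anagen (difference -1.53, SE 0.24, adjusted p = 0.0061). Nor did Fgfr1, at 384, 388 and 392.3 CPM in telogen and 393, 430.2 and 395 CPM in early anagen (difference -0.90, SE 0.16, adjusted p = 0.011). Mme, the surface endopeptidase CD10, fell in old from 173, 59.7 and 117 to 8.62, 21.1 and 28.99 CPM and stood at 44.6, 58.3 and 38.96 CPM in young telogen and 41.9, 47.7 and 60.5 CPM in young early anagen (difference -2.66, SE 0.53, adjusted p = 0.018). The differences of Lhx2, Tbx1, Dlx3, Fgfr3, Fgfr1 and Mme passed whichever single library was left out.

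The differences of another 3 genes did not. Id3 was at 22.04, 31.7 and 68.97 CPM in young telogen and 20.8, 37.7 and 61.9 CPM in young early anagen (difference -2.39, SE 0.58, adjusted p = 0.049) and passed only without telogen replicate 3 of old, early anagen replicate 1 of young or telogen replicate 3 of young, with -2.53 to -1.92 in the other 9 cases. It was lost as well with limma-voom (-2.36, adjusted p = 0.07) and with upper quartile scaling (-2.38, adjusted p = 0.05). Lgr5 was at 168, 152 and 232 CPM in young telogen and 169, 259.7 and 219 CPM in young early anagen (difference -1.14, SE 0.27, adjusted p = 0.047) and passed without the same 3 libraries only, with -1.17 to -0.95 in the other 9. With a replicate block it did not pass (-1.14, adjusted p = 0.056). Smad7 was at 29.8, 36.6 and 49.9 CPM in young telogen and 37.2, 41.8 and 51.2 CPM in young early anagen (difference -1.47, SE 0.33, adjusted p = 0.033) and was lost in 8 cases (-1.57 to -1.31), passing without telogen replicate 2 or 3 of old, early anagen replicate 1 of young or telogen replicate 3 of young.

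**Figure D4:**
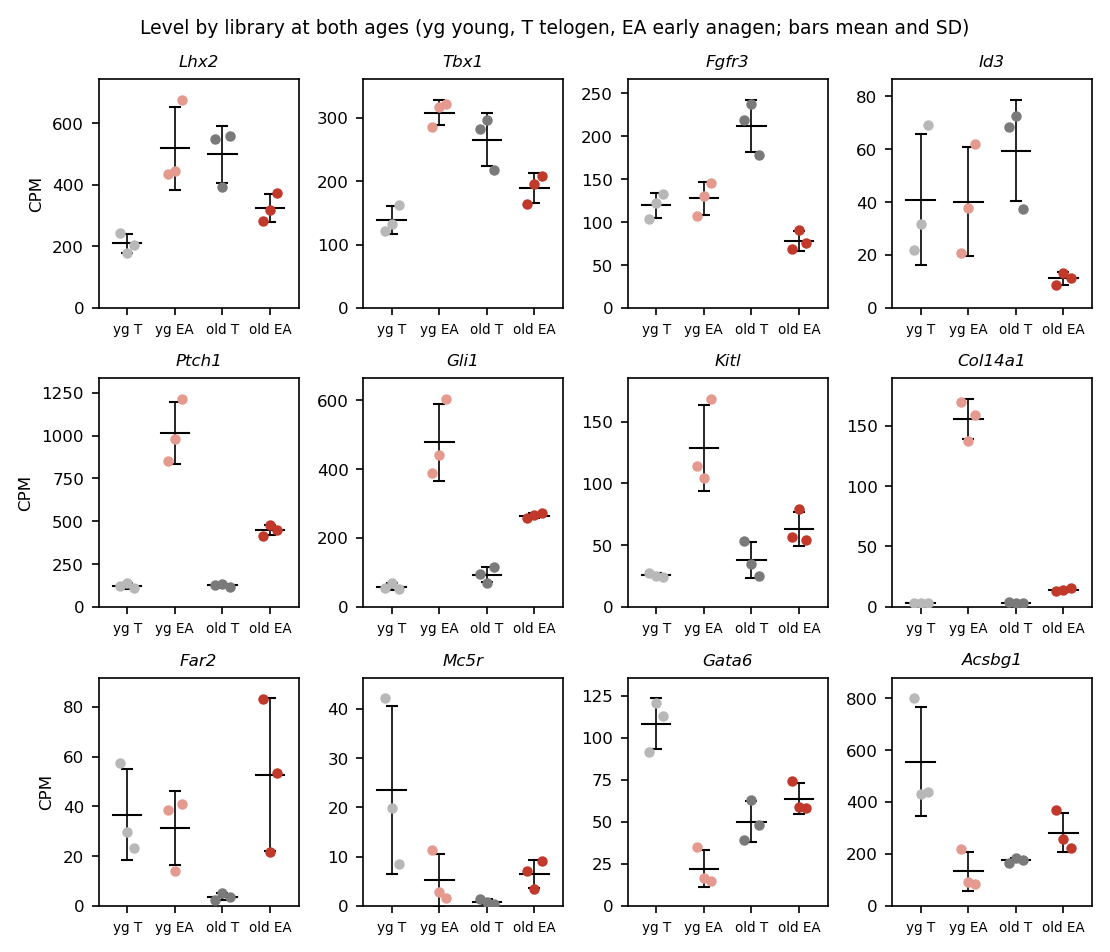
Level in CPM of 12 genes in each library of the 4 groups: young (yg) and old, telogen (T) and early anagen (EA). Bars are the mean and SD over n = 3, and axes start at 0. Ptch1, Gli1, Kitl and Col14a1 reach their highest levels in young early anagen, while Far2 and Mc5r are lowest in old telogen.

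The plot of levels at both ages also shows the second kind, with a positive difference. The genes given here are, apart from Tgm2, from the gland and upper follicle lists. They are a selection from the 161 genes in that direction, which also include 3 of 12 tested Notch receptors and modifiers. Far2 was at 57.5, 29.5 and 23.1 CPM in young telogen and 38.7, 14.2 and 41.01 CPM in young early anagen, with overlapping stages, and its difference was 4.04 (SE 0.70, adjusted p = 0.0083). With limma-voom that difference did not pass (3.92, adjusted p = 0.053). Mc5r was at 42.1, 19.9 and 8.59 CPM in young telogen and 11.4, 2.81 and 1.51 CPM in young early anagen (difference 5.10, SE 1.06, adjusted p = 0.023), lost without early anagen replicate 1 or 3 or telogen replicate 3 of old or early anagen replicate 2 of young (4.73 to 5.06) and with limma-voom. Gata6, a factor of the gland duct, fell in young from 91.3, 120.5 and 113 to 34.8, 16.7 and 15.1 CPM and stood in old at 38.95, 63.04 and 48.03 CPM in telogen and 74.4, 58.9 and 58.2 CPM in early anagen with no call (difference 2.64, SE 0.39, adjusted p = 0.0044). Acsbg1, an acyl-CoA synthetase, fell in young from 799, 431 and 437 to 221, 93.02 and 84.2 CPM and stood in old at 166, 183 and 178 CPM in telogen and 367, 258 and 222 CPM in early anagen (difference 2.75, SE 0.44, adjusted p = 0.007). Plet1 fell in young, from 97.03, 154 and 127 to 68.4, 56.8 and 61.5 CPM (difference 1.80, SE 0.33, adjusted p = 0.011). Tgm2, tissue transglutaminase, fell in young from 34.2, 26.6 and 11.1 to 2.35, 2.81 and 2.14 CPM and in old was at 2.43, 4.98 and 1.18 CPM in telogen and 8.37, 5.15 and 5.93 CPM in early anagen (difference 4.47, SE 0.76, adjusted p = 0.0075). As a group, sebocyte factors had a median change of 1.29 in old and -0.89 in young.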

How the data were processed

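Per the submitters' processing notes, reads were handled with bcl2fastq 2.17.1.14, cutadapt 1.9.1, HISAT2 2.0.1 and HTSeq 0.6.1 on GRCm39. Per the labels' protocols the libraries came from total RNA with a stranded kit. How HTSeq was set for strand is not stated, and genes that overlap, on either strand, may hold each other's reads. The deposited table held raw counts per gene for 55359 genes, and FPKM computed by the authors, which equalled count over exonic length and library total within 0.005 and was used only to choose genes by level. Columns written nonpk were read as telogen and pk as depilated early anagen. This is an inference from the labels, and every direction rests on it.

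The counts were filtered with filterByExpr, which left 16011 genes, scaled with TMM and fitted with edgeR 4.0.16 (quasi-likelihood test, R 4.3.3, limma 3.58.1) over all 12 libraries as 4 groups of 3. Contrasts were old early anagen against telogen, the same in young, and old response minus young response. Tests were 2-sided and adjusted by the Benjamini-Hochberg method, and SE is the log2 fold change over the square root of F. In simulated data for the old comparison with 15450 genes, 35% of 2-fold and 89% of 4-fold changes were recovered. Only genes with a mean above 5 CPM were changed there, so recovery at lower levels was not measured. The members and the 40 gene lists (1001 of 1005 names matched) were chosen with earlier results of these data known. Genes named are the 10 steepest in each direction among named protein-coding genes called, without overlap and with mean FPKM of at least 5, up to 4 called and the 2 most abundant genes of each role of a list, up to 5 genes in each direction and 2 of each list for the difference between ages, and a fixed set of genes. Of these, the text gives those its groups turn on. Intervals and the floor of 3 counts cover counting error only. Ly6a and Cdkn2a were too low to test. Alternatives were other scalings, filters and tools (DESeq2 1.42.0, limma-voom), leaving out each library and a replicate block.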

Additional observations from a re-analysis of the deposited data

Results flagged for a closer look

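The results listed here are genes whose early anagen change differed between old and young mice by the test of the difference itself (old response minus young response, log2, edgeR, adjusted p under 0.05). The values were -1.93 for Lhx2, -1.64 for Tbx1, -1.64 for Tcf7l1, -1.14 for Lgr5 and -3.32 for Dlx3, among stem cell and germ genes. Foxc1 and Fosl2, also bulge factors, gave 1.32 and 1.26. Hedgehog genes gave -1.23 for Ptch1 and -1.51 for Gli1. Growth factor receptors gave -1.53 for Fgfr3 and -0.90 for Fgfr1, BMP and TGF-beta targets -2.39 for Id3 and -1.47 for Smad7, and the melanocyte ligand Kitl -1.58. Matrix and surface genes gave -1.17 for Lama5, -3.52 for Col14a1 and -2.66 for Mme. In the other direction stood Far2 at 4.04, Mc5r at 5.10, Plet1 at 1.80, Gata6 at 2.64, Acsbg1 at 2.75 and Tgm2 at 4.47. Upper follicle sums were lowest in old telogen replicate 1, at 3278 CPM, and the part of such cells in the last group of genes was not tested.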

How the results depend on the processing

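Of 117 named genes called in the old comparison, 111 stayed called under every change of scaling, filter, design or tool that tested them. Whichever library was left out, 111 stayed called. Of 23 differences between the ages, 19 and 16 did so. No called gene changed sign. Sox9, not called, turned to 0.032 with quantile normalization and ran from -0.186 to 0.065 with 1 library left out (0.065 without old telogen replicate 1). Cdkn1a, not called, ran from -0.427 to 0.139 with 1 library left out, and was positive without old early anagen replicate 1 (0.017), old telogen replicate 2 (0.139) or old telogen replicate 3 (0.027). Foxc1, not called in old, ran from -0.192 to 0.023 and was positive without old early anagen replicate 2 (0.017) or old telogen replicate 1 (0.023). Leaving the genes used in the sort out of the lists was chosen after seeing the data. A fit of the old libraries alone gave 1327 higher and 1157 lower genes. Leaving out 1 library gave 925 to 1184 higher and 592 to 858 lower genes in old. Differences between ages numbered 387 higher and 217 lower with DESeq2, 575 and 243 with no filter, and 62 to 290 higher and 30 to 122 lower when 1 library was left out. Of 804 list counts with 1 library left out, 145 moved by more than 1.5 times. The cause was not tested. Same-numbered old libraries did not deviate together (r -0.044 to 0.031, against -0.047 to 0.038 for different numbers). Over all 4 groups, same-numbered libraries reached r 0.108 (young and old telogen replicate 1), and libraries of different number reached 0.056. No label ties libraries of the same number, and numbers were not taken as pairs. With a replicate block the old comparison gave 1344 higher and 985 lower genes and the difference 219 and 91. A count of 0 over the old telogen libraries allows a level of up to about 0.124 CPM.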
